A study of Mus musculus with 8 samples.

Results

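The islands described here were CpG islands with low percent methylation values in reduced representation bisulfite sequencing (RRBS) of differentiating mouse embryonic stem cells (mESCs). They were chosen by their measured values: autosomal islands outside the *Hox* table, with a value in all 8 libraries, whose plain mean over the 8 libraries was at least 1 and under 5 percent. Of 13840 islands listed, 7461 had a value, and 7426 of these were autosomal and outside the *Hox* table. The rule kept 931 islands, or 12.5% of the 7426, while 6202 islands had a mean under 1 percent and 293 a mean of 5 percent or more. The level is therefore how the islands were found and not a result, and no test is given for it.

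The cells were male mESC lines on the way to neuromesodermal progenitors (NMPs), the axial progenitors that give rise to spinal cord and paraxial mesoderm. There were 2 *Smchd1* wt lines, of genotype *Smchd1*[fl/+], and 2 *Smchd1* matΔ lines, of genotype *Smchd1*[del/+], in which the maternal allele had been removed in the oocyte with Zp3-Cre while the paternal allele was kept. All cells were in medium with basic FGF, and each line was harvested at day 2 and again at day 2.5, after CHIR99021 had been added to activate Wnt signalling, so each of the 4 groups held 2 libraries. Each library came from a separate line or day, and methylation values carry no marker of cell state and no measure of the deletion, so neither the labelled cell type nor the genotype was checked here.

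CpG islands are stretches rich in CpG dinucleotides, and most lie at promoters, where they usually stay free of DNA methylation whether or not the gene is active. Methylation is written by the de novo enzymes DNMT3A and DNMT3B, kept through division by DNMT1 with UHRF1, and removed by the TET enzymes and by dilution. Islands bound by Polycomb complexes, many of them at developmental regulators, are typically unmethylated in embryonic stem cells. RRBS cuts DNA at CCGG sites and reads the fragment ends after bisulfite conversion, so only CpGs near those ends are measured. The value of an island is the percent methylation that the authors' software gave over its measured CpGs.

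The windows below show the islands on which the contrast between even and uneven low methylation turns. Each is the 200 bases richest in CpG within its island, outside annotated untranslated regions, on GRCm38.p6, with every CpG in capitals. The *Gm37844*, *Gse1* and *Comp* islands had the most even values over the 8 libraries. They held 34, 39 and 24 CpGs in the window.
Gm37844 island, chr8:15027859-15028058, plus strand: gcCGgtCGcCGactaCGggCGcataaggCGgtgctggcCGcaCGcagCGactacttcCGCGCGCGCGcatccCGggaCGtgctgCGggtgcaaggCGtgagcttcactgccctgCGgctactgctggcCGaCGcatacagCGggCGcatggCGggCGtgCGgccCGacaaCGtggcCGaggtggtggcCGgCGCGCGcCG
Gse1 island, chr8:120229032-120229231, plus strand: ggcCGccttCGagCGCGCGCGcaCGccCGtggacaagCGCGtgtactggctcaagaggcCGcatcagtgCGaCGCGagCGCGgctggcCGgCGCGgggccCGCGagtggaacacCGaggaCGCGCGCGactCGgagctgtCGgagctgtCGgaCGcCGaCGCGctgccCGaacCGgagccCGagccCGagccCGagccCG
Comp island, chr8:70374767-70374966, plus strand: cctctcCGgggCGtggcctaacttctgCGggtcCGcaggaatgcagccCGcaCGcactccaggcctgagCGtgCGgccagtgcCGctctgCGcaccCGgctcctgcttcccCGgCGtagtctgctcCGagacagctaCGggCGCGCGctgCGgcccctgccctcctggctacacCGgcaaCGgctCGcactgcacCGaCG
The next pair come from islands at 0 in most libraries with a high value in 1 of them, at *Gjb6* and *Sh2d3c*, with 16 and 26 CpGs.
Gjb6 island, chr14:57132910-57133109, plus strand: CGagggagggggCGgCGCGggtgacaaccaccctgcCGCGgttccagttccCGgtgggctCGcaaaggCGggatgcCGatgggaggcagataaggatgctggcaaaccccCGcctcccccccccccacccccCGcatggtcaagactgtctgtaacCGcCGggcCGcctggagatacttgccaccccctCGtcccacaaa
Sh2d3c island, chr2:32741453-32741652, plus strand: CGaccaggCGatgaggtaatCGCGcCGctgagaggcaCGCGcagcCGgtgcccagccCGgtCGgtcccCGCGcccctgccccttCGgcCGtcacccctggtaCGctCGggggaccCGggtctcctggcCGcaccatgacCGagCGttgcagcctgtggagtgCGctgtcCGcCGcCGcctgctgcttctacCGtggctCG
The last pair come from islands that were among the smallest p-values between the genotypes, at *Ebf2* on day 2 and *Rasl10a* on day 2.5, with 20 and 21 CpGs.
Ebf2 island, chr14:67235548-67235747, plus strand: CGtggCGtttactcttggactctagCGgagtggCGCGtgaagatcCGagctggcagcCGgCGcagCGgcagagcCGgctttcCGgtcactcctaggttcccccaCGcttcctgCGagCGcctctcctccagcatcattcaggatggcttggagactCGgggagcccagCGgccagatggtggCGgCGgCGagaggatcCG
Rasl10a island, chr11:5058306-5058505, plus strand: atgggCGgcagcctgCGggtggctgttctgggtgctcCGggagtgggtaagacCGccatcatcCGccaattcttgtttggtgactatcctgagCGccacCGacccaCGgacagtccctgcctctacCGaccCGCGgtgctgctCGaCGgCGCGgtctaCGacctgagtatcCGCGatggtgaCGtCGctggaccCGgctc

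The 931 islands fell into 3 kinds by how their values were spread over the libraries. Of them, 645 (69.3%) were steady low, meaning above 0 in at least 6 of 8 libraries with the highest library holding under 50% of the summed value. Another 67 (7.20%) were sporadic, at 0 in at least 5 libraries with the highest holding at least 50%, and the remaining 219 (23.5%) were mixed. In all, 384 islands (41.2%) were above 0 in all 8 libraries, and 10 were above 0 in only 1. The plot of islands by the number of libraries above 0 shows this range.

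**Figure D1:**
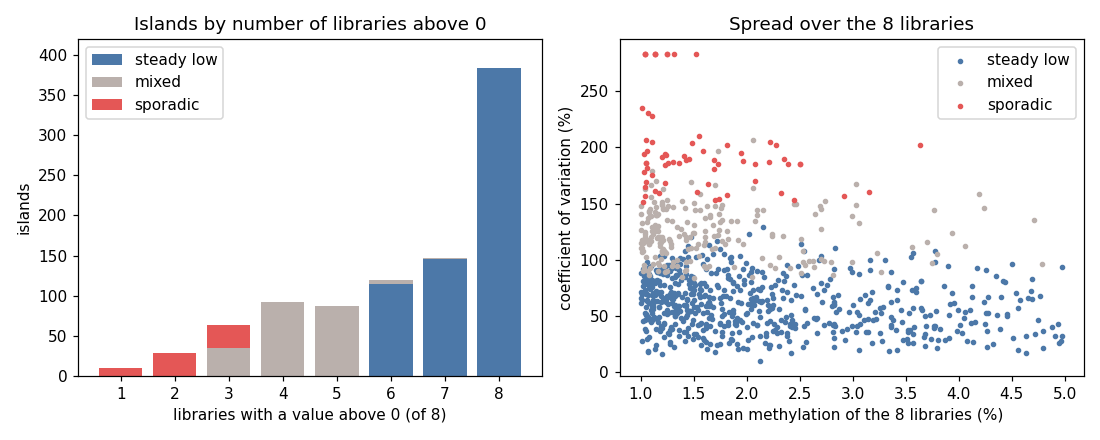
Left, number of islands by how many of the 8 libraries had a value above 0, coloured by kind. Right, coefficient of variation over the 8 libraries (percent) against mean methylation (percent), 1 point per island. The 384 islands above 0 in all 8 libraries form the tallest bar, and the sporadic islands lie at the highest coefficients of variation.

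Steady low islands had a median level of 1.83%, a median coefficient of variation of 59.5% and a median highest value of 3.62%. Sporadic islands had a lower median level of 1.32%. Of their values 71.6% were 0, and the median highest value was 7.84%, with a maximum of 20%. Their coefficient of variation had a median of 188%. The smallest value above 0 had a median of 0.800% in steady low islands and 3.70% in sporadic islands, a difference that the mean limit and the definition of the kinds bring with them. The highest library of the 67 sporadic islands was spread over all 8 libraries, with between 5 and 12 islands each. It was a *Smchd1* wt library for 32 of them and a *Smchd1* matΔ library for 35. Read counts behind the values were not used here, as the files give percentages only, so the depth of an island is unknown and no counting interval is given.

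Chromosome 8 stood apart from the other autosomes in the evenness of its values, in every library. Of the 523 islands with a value on chromosome 8, 16.9% of the values were 0, against 35.7% to 46.5% on the other autosomes. The 8 libraries ranged from 11.3% to 25.2% on chromosome 8 and from 33.1% to 44.1% over the other autosomes together. Taken singly, the other autosomes ran from 24.1% to 54.1% by library, so the ranges overlapped at the end. A value had been given for 72.9% of the listed islands of chromosome 8, against 46.1% to 66.6% elsewhere. The smallest value above 0 had a median of 0.244% on chromosome 8 and 0.358% to 0.5% elsewhere. The level itself was similar, with a median island mean of 0.432% against 0.403% over the other autosomes, as was the number of CpGs near CCGG ends (median 56 against 58). In 4 stretches of about equal island number along the chromosome the share of zeros was 19.3%, 20.6%, 15.8% and 11.7%, so the low share ran along its whole length. The cause was not tested.

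This touches the kinds directly. On chromosome 8, 74 of 77 islands of 1 to under 5 percent were steady low, none was sporadic and 3 were mixed, and their median coefficient of variation was 48.2%. Over the other autosomes, 571 of 854 (66.9%) were steady low, 67 sporadic and 216 mixed, with a median coefficient of variation of 79.3%. The share of islands at 1 to under 5 percent was 14.7% on chromosome 8 and 12.4% elsewhere, where the other autosomes taken singly ranged from 8.38% to 14.6%. Whether a low island counted as steady therefore moved with the chromosome. The counts of calls, the means per library, the choice on the *Smchd1* wt libraries, the positions, the size of the kinds and the share at developmental transcription factors were also computed without chromosome 8, a choice made after seeing the data.

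**Figure D2:**
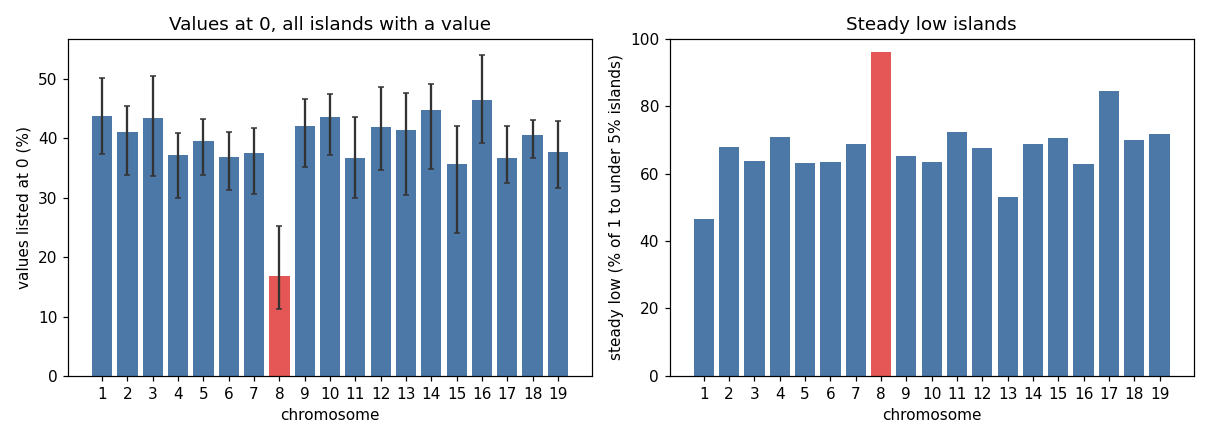
Left, percent of values listed at 0 over all islands with a value on each autosome, as the bar over the 8 libraries together, with whiskers from the lowest to the highest library. Right, percent of the islands of 1 to under 5 percent that were steady low. Chromosome 8 (red) has 16.9% zeros and 96.1% steady low islands, the extreme of both plots.

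The most even islands lay at annotated transcript starts. The *Gm37844* island (chr8:15027486-15029176), which also lies within 2 kb of a transcript start of *Kbtbd11*, was at 1.89% and 2.47% in *Smchd1* wt lines at day 2, 1.93% and 2.37% at day 2.5, and 2.19%, 1.99%, 2.22% and 1.93% in the *Smchd1* matΔ libraries in the same order. Its coefficient of variation of 10.3% was the smallest of all 645. The island at *Gse1* (chr8:120228375-120230336), a gene for a coiled-coil protein of histone deacetylase complexes, was at 0.898%, 1.09%, 1.02% and 1.34% in the *Smchd1* wt libraries and at 1.43%, 1.2%, 1.26% and 1.42% in the *Smchd1* matΔ libraries. At *Comp* (chr8:70374474-70375385), which encodes a cartilage matrix protein, values ran from 2.05% to 3.02%. The genotypes overlapped at both days at *Gm37844* and *Comp*, and at day 2.5 but not at day 2 at *Gse1*, where the day 2 difference was 0.319 points (SE 0.365, limma adjusted p = 0.976).

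Of the 8 most even islands 5 were on chromosome 8, the others of these being *Trim67* (0.817% to 1.3%) and *Zfp703* (0.808% to 1.33%). The 3 on other chromosomes were *Gm13238* on chromosome 4 (2.86% to 5.38%), *Man1c1*, a mannosidase gene of the Golgi, on chromosome 4 (1.33% to 2.24%), and *Hic1*, a transcriptional repressor gene, on chromosome 11 (2.61% to 4.70%). The *Hic1* island spans 8548 bases and 594 CpGs, of which 348 lie near CCGG ends. The 8 islands were 823 to 8548 bases long, against a median of 763 for the 931.

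Among sporadic islands the highest single value was 20%, at *Atp6v1h* (chr1:5083040-5083536), which encodes a subunit of the vacuolar proton pump. It came from *Smchd1* matΔ line 2 at day 2, while *Smchd1* wt line 1 at day 2 gave 9.09% and the other 6 libraries 0. The *Gjb6* island, at a connexin gene (chr14:57132910-57133456), was at 13.9% in *Smchd1* wt line 1 at day 2, 5.26% in the same line at day 2.5 and 6.06% in *Smchd1* matΔ line 1 at day 2.5, with 0 elsewhere. At *Sh2d3c*, an adaptor protein gene (chr2:32741429-32741833), *Smchd1* matΔ line 2 at day 2.5 gave 13.3%, and 2 others gave 1.96% and 2.94%.

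At *Rspo3*, which encodes a secreted enhancer of Wnt signalling (chr10:29535492-29536102), 2 libraries were above 0, at 5.26% and 12.5%. The *Lhx6* island, at a LIM homeobox gene, had 12.5%, 5.56% and 5.26% in 3 libraries. Only the *Efcc1* island of these 6 was above 0 in 1 library alone, *Smchd1* matΔ line 1 at day 2.5, at 12.2%. None of these 6, picked by their highest value, had both lines of a group above 0, but the sporadic *Ebf2* island described below had.

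The limits of the rule cut through a continuous range. Just inside the lower limit were the islands at *Tmem229a* and near *Zfp869*, and just outside it those at *Zbtb38* and *Tmod1*, where values between 0% and 3.70% averaged to almost the same level. At the upper limit *Gm11726* (4.98%) and *H2-Q7* (4.97%) were inside, and *Fev* (5.02%) and *Gm14486* (5.03%) outside, and the *H2-Q7* island alone ran from 0% to 13.0%. No test was made at the limits.

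How far a low level carried over to other libraries was read by choosing islands with the same limits on 4 libraries and looking at the other 4, which the choice had not used. Chosen on the *Smchd1* wt libraries, 1003 islands had a mean of 1 to under 5 percent, and 58.5% of them did in the *Smchd1* matΔ libraries too, against 6.73% of the 6136 islands that were under 1 percent in *Smchd1* wt. Of the 521 chosen islands above 0 in all 4 *Smchd1* wt libraries, 71.0% were in the range in *Smchd1* matΔ, with a median of 1.81%. Of the 63 above 0 in 1 of the 4, 31.7% were, with a median of 0.658%, and 38.1% were at 0 in all of the other 4. Without chromosome 8 the shares were 57.3% of 923, 70.3% of 454 and 31.7% of 60.

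Chosen instead on *Smchd1* matΔ, on day 2, on day 2.5 or on line 1 or 2 of each genotype, between 54.9% and 59.1% were in the range in the libraries left out. For islands above 0 in all 4 the share was 66.9% to 73.2%, and for those above 0 in 1 of 4 it was 31.3% to 38.6%. Over the 521 islands the means of *Smchd1* matΔ lines 1 and 2 had a Pearson correlation of 0.616, as a description across islands, which share the library, the depth and the sequence. Islands above 0 in all 4 choosing libraries were thus in the range in the other 4 more often than those above 0 in 1 of 4. Their level in the choosing libraries was also higher, with medians of 1.88% and 1.44% when chosen on *Smchd1* wt. These sets are not the kinds defined over 8 libraries, and a choice by day uses the same cell lines on both sides. No test was run on the difference.

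Low methylated islands stood between the other levels in where they lay. A transcript start lay inside 78.8% of the 931 islands, against 94.5% of islands under 1 percent and 41.6% of those of 5 percent or more. Counted within 2 kb, the shares were 89.4%, 97.7% and 60.1%. Islands inside a gene body made up 6.44% of the 931, 1.02% of the islands under 1 percent and 30.0% of those of 5 percent or more, and intergenic islands 4.19%, 1.24% and 9.90%.

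Read the other way, 10.9% of the 6717 islands with a start inside were at 1 to under 5 percent, against 27.8% of 353 with a start within 2 kb, 28.4% of 211 in gene bodies and 26.9% of 145 intergenic islands. The share among islands away from a start was thus between 26.9% and 28.4% whatever their place, while islands of 5 percent or more made up 41.7% of the gene body islands. Steady low and sporadic islands had a start inside at 78.4% and 82.1%, and within 2 kb at 88.4% and 97.0%. In gene bodies lay 48 steady low and 0 sporadic islands. The position was not used by the rule, and no test was made on these shares. Without chromosome 8 the shares at 1 to under 5 percent by position were 10.8%, 28.8%, 28.1% and 25.4%.

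**Figure D3:**
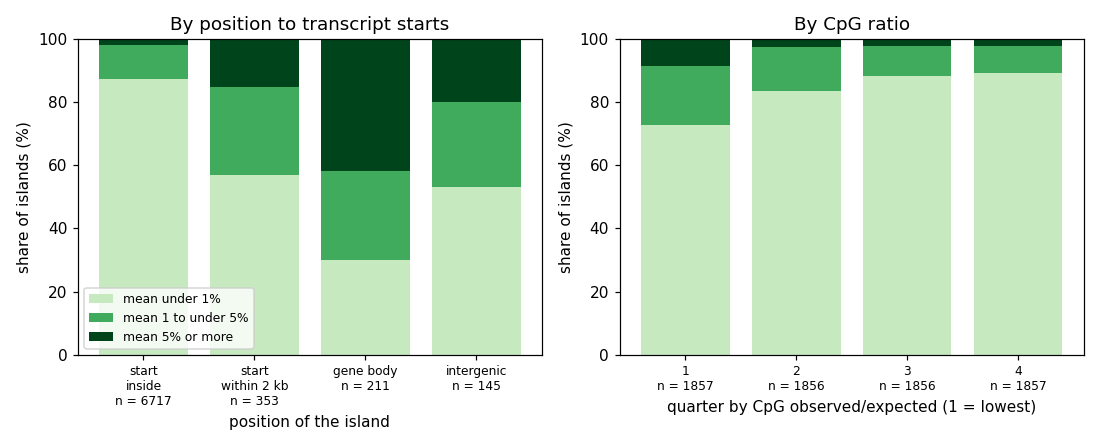
Share of islands (percent) at each mean level, by position (left) and by 4 equal sets of the observed over expected CpG ratio from lowest to highest (right), with the number of islands under each bar. Islands of 1 to under 5 percent make up 10.9% of those with a transcript start inside and 26.9% to 28.4% of the others, and fall from 18.6% to 8.29% from the lowest to the highest CpG ratio.

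Their sequence was also intermediate. The observed over expected CpG ratio, computed from the sequence, had a median of 0.899 in islands under 1 percent, 0.854 in the 931 and 0.807 in those of 5 percent or more, and CpGs per 100 bases had medians of 10.8, 9.90 and 8.96. GC content had medians of 69.9%, 68.8% and 66.5%. Sorted by the ratio into 4 equal sets, the share at 1 to under 5 percent fell from 18.6% through 13.7% and 9.54% to 8.29%. The ratio of steady low and sporadic islands was 0.853 and 0.855. The ratio written in the deposited island names differed from the computed one (Pearson correlation of 0.629 over 7426 islands), and with it the medians were 0.87, 0.82 and 0.78 and the shares 19.8%, 12.8%, 10.3% and 6.65%.

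Steady low and sporadic islands also differed in size. Steady low islands were 813 bases long (median) and sporadic islands 630, and they held 57 and 40 CpGs near CCGG ends (818 bases and 57 CpGs for steady low islands without chromosome 8). Sorted by the number of such CpGs into 4 sets, from fewest to most, there were 32, 21, 11 and 3 sporadic islands, against 175, 159, 148 and 163 steady low islands. The number of CpGs that RRBS can read in an island thus moved with the kind, as the chromosome did, and their part in it was not tested. Another island lay within 10 kb of 150 of the 931, and that neighbour was itself at 1 to under 5 percent in 24%, against 15.2% of the neighbours of 719 islands under 1 percent.

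Islands at developmental regulators were in the range more often than islands overall. Of 148 islands with a start within 2 kb of a gene of the developmental transcription factor families (such as Pax, Sox, Fox, Tbx and LIM homeobox genes), 51 (34.5%) were at 1 to under 5 percent, against 12.5% of all islands, 88 were under 1 percent and 9 at 5 percent or more. Among the 121 of them with a start inside the island the share was 33.1%, against 10.9% of all such islands, and their median level was 0.705% (0.839% for the 148 and 0.405% for all). Without chromosome 8 the share was 33.8% of 139. Of the 51 islands 35 were steady low, 6 sporadic and 10 mixed.

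The highest of them was at *Neurog1*, a proneural bHLH gene (chr13:56251344-56252536). The *Smchd1* wt lines were at 6.82% and 4.69% on day 2 and 3.63% and 8.95% on day 2.5, and the *Smchd1* matΔ lines at 0% and 1.32% and then 7.64% and 4.17%, so the genotypes were apart at day 2 only (-5.09 points, SE 2.02, limma adjusted p = 0.968). At *Dlx3*, a distal-less homeobox gene (chr11:95120007-95121863), 2 libraries stood at 11.6% and 7.17% and the other 6 between 1.04% and 2.42%. At *Olig2*, a bHLH gene of motor neuron and oligodendrocyte progenitors (chr16:91225321-91227642), the 4 *Smchd1* matΔ libraries (3.13% to 7.19%) were above the 4 *Smchd1* wt libraries (1.28% to 2.82%), with a day 2 difference of 3.84 points (SE 1.28, limma adjusted p = 0.968).

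Some of these genes held several such islands. *Tbx1*, a T-box gene, had 3, with means of 2.10%, 1.32% and 1.19%, and *Tlx1* and *Ebf2* had 2 each. Over the 51 islands the *Smchd1* wt libraries had means of 2.04% and 1.86% at day 2 and 1.69% and 1.78% at day 2.5, and the *Smchd1* matΔ libraries 1.89% and 1.97%, then 1.94% and 1.94%. The genotypes overlapped at day 2, and at day 2.5 both *Smchd1* matΔ libraries were higher. No test was made on these means.

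Ligands gave a similar share. Of 38 islands at Wnt, Fgf and Bmp genes, 12 (31.6%) were at 1 to under 5 percent. Both islands within 2 kb of a start of *Fgf11* were among the highest (means of 4.40% and 4.13%). The nearest start to the first of them was that of *Tmem102*. At *Wnt1*, a Wnt ligand of the midbrain, the values ran from 1.43% to 5.84%. *Wnt3a*, which maintains NMPs, had an island at a mean of 1.03%.

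Of 21 islands at axial progenitor genes 7 (33.3%) were in the range. At *Evx1*, a posterior homeobox gene, both *Smchd1* wt libraries at day 2.5 were at 0 and the other 6 ran from 1.19% to 7.77%. At *Cdx1*, a caudal homeobox gene that acts upstream of *Hox* genes, values ran from 0% to 8.57%. Of 17 islands at pluripotency genes 4 were in the range, led by *Esrrb*, an orphan nuclear receptor gene of naive mESCs (chr12:86421660-86422902), at 3.15%, 2.02%, 2.08% and 5.15% in *Smchd1* wt and 4.72%, 5.81%, 7.94% and 7.09% in *Smchd1* matΔ. The genotypes did not overlap there at either day. Their means differed by 2.68 points at day 2 (SE 1.21, limma adjusted p = 0.968) and by 3.90 points at day 2.5 (SE 1.21, limma adjusted p = 0.954). *Otx2* and *Tbx3* followed, with means of 2.79% and 1.64%.

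Of the islands at ribosomal protein genes, 2 of 53 (3.77%) were in the range, against 12.5% of all islands, at *Rpl37a* (mean of 1.75%) and *Rpl38* (1.00%), and 50 were under 1 percent. Of 20 islands at genes of the DNA methylation machinery 2 (10%) were in the range, near the 12.5% of all islands, at *Uhrf2*, a paralogue of *Uhrf1* (1.67% to 7.35%), and *Kdm2b*, whose product binds unmethylated CpG (0.714% to 3.51%). Of 35 at Polycomb genes 3 (8.57%) were, at *Cbx8* (1.39% to 4.41%), *Phf1* (0% to 3.70%) and *Pcgf3* (0% to 3.70%).

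Germline genes had few islands with a value, 9 in all, of which 4 were in the range, led by an island shared by *Smc1b*, a meiotic cohesin gene, and *Ribc2* (1.47% to 9.09%), then *Tdrkh* (0% to 3.42%) and *Dazl* (0% to 3.92%). At imprinted genes 1 of 13 islands was, at *Grb10*, a growth regulator gene, from 0.181% to 3.20%. None of 3 islands at clustered protocadherins was in the range. The lists are small and share their position and sequence with other islands, so nothing particular to a list is read from these counts.

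The genotypes were compared first, which is the comparison the design was made for. No island of the 931 passed an adjusted p of 0.05 at day 2 or at day 2.5 (limma on percent, Benjamini-Hochberg over all 7196 islands tested), and none of the 7196 did at either day, a background of 0%. Without adjustment, 81 of the 931 (8.70%) had a p under 0.05 at day 2, 41 higher and 40 lower in *Smchd1* matΔ, against a background of 4.21% of all islands (2.11% higher, 2.1% lower). At day 2.5 there were 78 (8.38%), 47 higher and 31 lower, against 4.29% (2.31% higher, 1.99% lower). On the log2(percent + 1) scale the count at day 2 was 48 (5.16%), against 4.38% of all islands. With islands under 1 percent left out of the fit it was 44 at day 2 (4.73%, against 4.67% of the 1243 fitted). At day 2.5 it was then 42 (4.51%, against 4.34%). The distance from the background thus depended on the scale and on which islands shared the estimate of the spread.

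Both *Smchd1* matΔ lines lay outside the range of both *Smchd1* wt lines at 288 of the 931 islands (30.9%) at day 2 and at 301 (32.3%) at day 2.5, against 24.8% and 25.4% of all islands. The 2 lines of a group differed by 0.972 to 1.19 points (median over the 931), and the genotype means by 0.940 points at day 2 and 0.885 at day 2.5. A mean over 2 lines varies less than a single line, so the sizes of these differences are not directly comparable. In steady low islands the genotype means differed by 0.775 and 0.788 points.

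The smallest p at day 2 was at the *Ebf2* island, which starts 760 bases from a transcript start of a gene for an early B-cell factor (chr14:67235404-67236476). Both *Smchd1* matΔ lines were above 0 at day 2, at 3.85% and 4.55%, and the other 6 libraries were at 0. By its values it was a sporadic island. The difference was 4.20 points ± 0.382 (SE, n = 2 per group, limma adjusted p = 0.145). Both lines were at 0 in *Smchd1* wt at either day and in *Smchd1* matΔ at day 2.5, so the spread of those groups was not measured.

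An intergenic island (chr15:37135478-37136021), whose nearest start, of *Gm9509*, was 36383 bases away, was at 8.33% and 10% in *Smchd1* wt at day 2, 3.57% and 0% in *Smchd1* wt at day 2.5, and 0% in all 4 *Smchd1* matΔ libraries. At day 2 the genotypes differed by -9.17 points (SE 1.19, limma adjusted p = 0.509). An island over a coding exon of *Lca5l* (chr16:96159094-96159734), whose nearest start was that of *Wrb*, 7284 bases away, was at 6.94% and 4.41% in *Smchd1* wt at day 2, 2.38% and 1.56% at day 2.5, and 0% in all 4 *Smchd1* matΔ libraries (limma adjusted p = 0.526 at day 2). At both islands all *Smchd1* matΔ values were 0, so the spread of those groups was not measured.

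At day 2.5 the smallest p was at *Pax3*, a paired box gene of neural crest and dermomyotome (chr1:78196632-78197287). The island was at 1.85% and 2.22% in *Smchd1* wt at day 2 and 1.59% and 0% at day 2.5, and at 0% and 0% in *Smchd1* matΔ at day 2 and 6.67% and 9.26% at day 2.5. The *Smchd1* matΔ lines were thus lower at day 2 and higher at day 2.5, by 7.17 points (SE 0.970, limma adjusted p = 0.466), without overlap at either day.

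*Rasl10a*, a Ras-like GTPase gene (chr11:5057946-5058535), was at 1.10% and 1.02% in *Smchd1* wt at day 2, 0% and 0% in *Smchd1* wt at day 2.5, and 2.14%, 2.48%, 2.60% and 2.60% in *Smchd1* matΔ (day 2.5 difference of 2.60 points, SE 0.375, limma adjusted p = 0.466). All 4 *Smchd1* matΔ libraries were higher than all 4 *Smchd1* wt libraries. The 2 lines of each group had the same value at day 2.5, so that SE draws on the other libraries and islands. In the body of *Pax7*, the paralogue of *Pax3* (chr4:139828039-139828698), the *Smchd1* wt lines were at 4.17% and 3.33% and then 9.52% and 10.3%, and the *Smchd1* matΔ lines at 0% and 3.33% and then 0% and 2.78%. The day 2.5 difference of -8.50 points had an SE of 1.39 (limma adjusted p = 0.466).

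**Figure D4:**
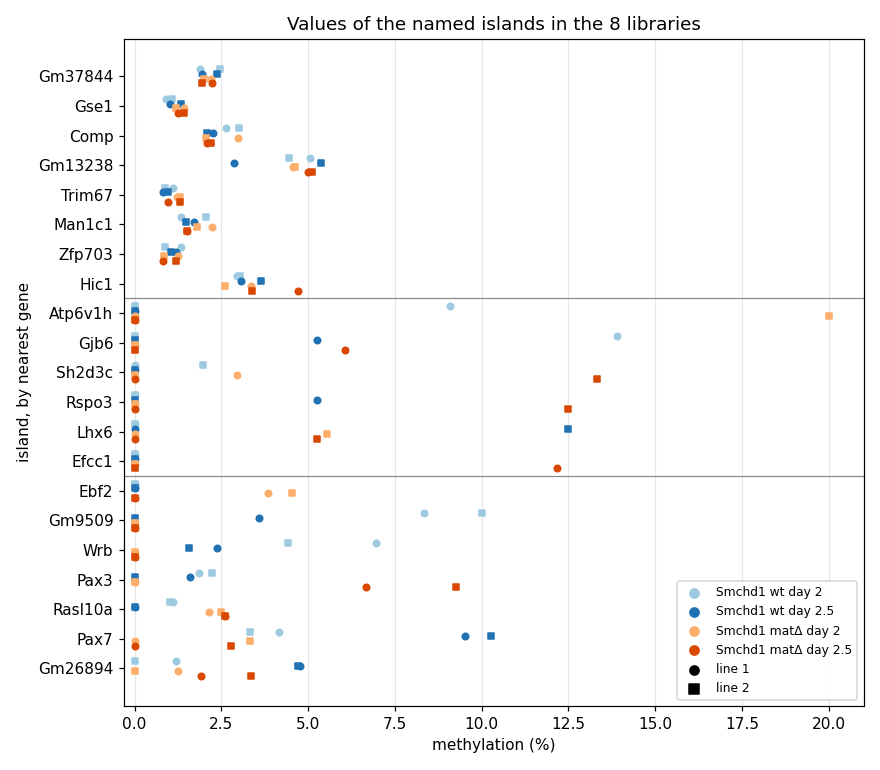
Methylation (percent) of the named islands in each of the 8 libraries, colours for genotype and day and symbols for the line. The 8 most even islands (top) keep all libraries together, the 6 sporadic islands (middle) have most libraries at 0 and a highest value between 12.2% and 20%, and at the 7 islands of smallest p (bottom), which were picked by the fit, 0 to 10.3% was measured.

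Day 2.5 was then compared with day 2 within each genotype, which follows the cells after Wnt activation. No island passed an adjusted p of 0.05 in *Smchd1* wt, in *Smchd1* matΔ or for the change in the genotype difference between the days (limma, backgrounds of 0% of 7196 in each). Without adjustment 70 of the 931 (7.52%) had a p under 0.05 in *Smchd1* wt, 24 higher and 46 lower at day 2.5, against 4.07% of all islands (1.76% higher, 2.31% lower). In *Smchd1* matΔ there were 76 (8.16%), 32 higher and 44 lower, against 4.41% (2.02% higher, 2.39% lower), and 75 (8.06%) for the interaction, against 4.67%.

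Both lines were lower at day 2.5 than both were at day 2 at 154 islands of the *Smchd1* wt cells (16.5%, against 12.6% of all islands) and at 184 of the *Smchd1* matΔ cells (19.8%, against 13.2%). The reverse held at 115 islands (12.4%, against 12.3%) and 111 islands (11.9%, against 11.3%). Values tied at 0 limit these shares as they do between the genotypes, and no excess is read from them. An island in an intron of *Shh*, the gene of the Sonic hedgehog morphogen (chr5:28464361-28465440, nearest start *Gm26894*), was higher at day 2.5 in *Smchd1* wt, from 1.19% and 0% to 4.77% and 4.70% (limma adjusted p = 0.560).

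Averaged over the islands, low methylation was less at day 2.5 in every line. The mean over the 931 islands went from 2.05% to 1.88% and from 1.98% to 1.86% in the *Smchd1* wt lines, and from 2.20% to 2.03% and from 2.18% to 1.88% in the *Smchd1* matΔ lines. Relative to day 2 these differences were -8.22%, -5.77%, -7.38% and -14.0%. The steady low islands were lower in all 4 lines, with differences of -9.66%, -12.3%, -7.17% and -13.5% of the day 2 value, from a mean of 2.24% ± 0.00106 to 1.99% ± 0.0430 in *Smchd1* wt cells and from 2.33% ± 0.0449 to 2.09% ± 0.145 in *Smchd1* matΔ cells (SD, n = 2). Without chromosome 8 the steady low islands were still lower in all 4 lines, with differences of -0.248, -0.288, -0.166 and -0.332 points.

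Sporadic islands were higher at day 2.5 in 3 lines and lower in 1, and mixed islands lower in 3 and higher in 1. Islands under 1 percent differed by 7.97%, -7.40%, 1.98% and -5.20% in the same order of lines, and those of 5 percent or more by -2.80%, 1.26%, -3.35% and -2.48%. With 2 lines per group and islands chosen on the same libraries no p is given for these means. By island, 375 of the 645 steady low islands had a lower and 270 a higher *Smchd1* wt mean at day 2.5, where all 7426 islands had 3376 lower and 3347 higher. For *Smchd1* matΔ the counts were 366 lower and 279 higher, against 3425 and 3203. The mean over all 7426 islands was also lower at day 2.5 in the 4 lines, with differences of -1.44% to -5.24%.

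Between the genotypes the mean over the 931 islands was 2.19% ± 0.0104 for *Smchd1* matΔ and 2.01% ± 0.0521 for *Smchd1* wt at day 2 (SD, n = 2), with both *Smchd1* matΔ lines above both *Smchd1* wt lines. The difference was 0.175 points, and 0.0518 points with the libraries scaled to the same mean over all islands. By kind and without scaling it was 0.0994 points in steady low, 0.359 in mixed and 0.300 in sporadic islands. In the sporadic islands the genotypes overlapped. The mean over all 7426 islands did not overlap at day 2 either, at 1.53% against 1.43%. At day 2.5 the means were 1.95% ± 0.111 and 1.87% ± 0.0136, and *Smchd1* matΔ line 2 lay between the *Smchd1* wt lines. That difference of 0.0827 points ranged from 0.00390 without *Smchd1* matΔ line 1 to 0.162 without *Smchd1* matΔ line 2. The plot of means by library shows the steady low islands beside the others.

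**Figure D5:**
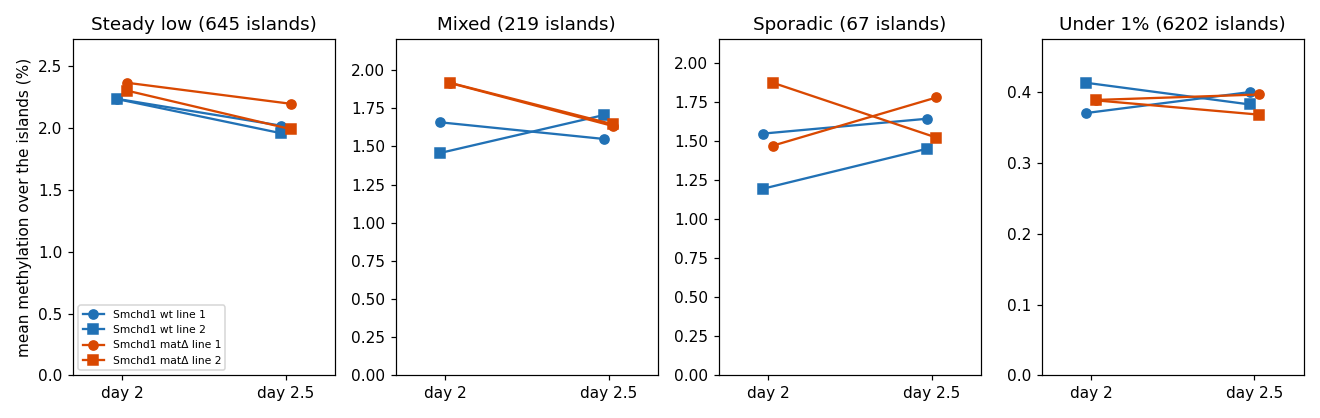
Mean methylation over the islands of each kind (percent, axis from 0) at day 2 and day 2.5, 1 line of the plot per cell line. All 4 cell lines are lower at day 2.5 in the steady low islands, from 2.23% to 2.37% at day 2 to 1.96% to 2.20% at day 2.5, and do not move in 1 direction in the mixed, the sporadic and the under 1 percent islands.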

How the data were processed

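RRBS libraries were made from genomic DNA of 2 *Smchd1* wt and 2 *Smchd1* matΔ mESC lines, each at day 2 and at day 2.5 (8 libraries), and groups followed the genotype, day and line in the labels. Each island and library has a deposited percent methylation. The authors obtained it by trimming (TrimGalore, Cutadapt 1.15 and a script for the kit's diversity bases) and alignment to GRCm38.p6 with Bismark 0.20.0. SeqMonk then gave the percent over CpG islands that passed a minimum of reads everywhere, with no scaling between libraries. How that step weighs CpGs of unlike depth was not examined. The percent values come without read counts, so depth and its error are unknown, and a value from few reads moves in large steps. No bisulfite conversion rate was used either, so how much of a low value came from unconverted cytosines is unknown. The *Hox* table served to leave out its islands, and its 4 columns of group means, the authors' means, were not used.

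The members, kinds, gene lists (10) and rules for named islands were chosen with earlier results of these data known. Positions came from GENCODE M21 and sequences from the RefSeq copy of the same build; all 7461 islands with a value started at a CpG there. CpGs near CCGG ends were those within 75 bases of an end of a fragment of 40 to 300 bases. Percent values of the 7196 islands that varied were fitted with limma 3.58.1 (R 4.3.3), with 1 mean per group, a variance trend, 4 residual degrees of freedom, two-sided tests and Benjamini-Hochberg adjustment, after a test on simulated data. SDs were taken between the 2 lines of each group. SEs and p-values rest on 1 residual spread per island, pooled over the 4 groups and moderated toward a trend over the islands tested. Tables were made with pandas 2.3.3 and numpy 2.4.6.

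Named islands were the 8 most even steady low ones, the 6 sporadic ones of highest value, the 3 smallest p between the genotypes at each day and the 2 smallest for each day comparison and the interaction, the 3 highest of each list, and the 2 nearest each side of a limit. Windows shown belong to the first 3, 2 and 1 per day of these, and the next in order was taken for *Atp6v1h* and *Pax3*, which had no window free of untranslated region. Numbers pair the days because the same line was harvested at both. Deviations of the 2 days had a correlation over islands of -0.0628 (*Smchd1* wt lines) and 0.197 (*Smchd1* matΔ lines).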

Additional observations from a re-analysis of the deposited data

Results flagged for a closer look

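The *Pax3* island was the 1 of 55 results examined whose effect had opposite directions under the same contrast with the lines apart. *Smchd1* matΔ was lower than *Smchd1* wt in both lines at day 2 and higher in both at day 2.5, and the difference between the 2 effects was 9.21 points (SE 1.37, limma adjusted p = 0.867 over 7196 islands). The same pattern of opposite effects without overlap was seen at 42 of the 931 islands (4.51%), against 3.35% of all islands tested.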

How the results depend on the processing

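Depth per island is unknown, and every group holds 2 lines. None of the 931 islands passed the adjusted threshold in any comparison under any alternative with all libraries, the fit without chromosome 8 included, which was chosen after seeing the data. With 1 library left out, the lone library of its group being assumed to vary like the others, up to 9 passed between genotypes at day 2 (range 0 to 9, most without *Smchd1* wt line 2 of day 2), 0 to 8 at day 2.5 (*Smchd1* matΔ line 1 of day 2.5), 0 to 6 between days in *Smchd1* wt (*Smchd1* wt line 1 of either day), 0 to 8 in *Smchd1* matΔ (*Smchd1* matΔ line 1 of day 2.5) and 0 to 3 for the interaction (*Smchd1* matΔ line 1 of day 2.5). Islands outside the 931 also passed in such fits, between genotypes and between days. The spread of a group left with 1 library was not measured, so no difference in the 931 islands is read from these counts. The day 2 difference at the *Ebf2* island ranged from 3.85 to 4.55 points with 1 library left out. With only the 4 libraries compared in the fit, its limma adjusted p was 0.754, against 0.145 with all 8 libraries.

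Counts at an unadjusted p under 0.05 were lower with islands under 1 percent left out of the fit: 44 in place of 81 and 42 in place of 78 between genotypes, 37 in place of 70 and 42 in place of 76 between days, and 33 in place of 75 for the interaction. Their shares were 3.54% to 4.73%, against 3.54% to 4.91% of all islands in that fit. On the log2(percent + 1) scale they were 48 at day 2 (5.16%, against 4.38% of all islands) and 61 at day 2.5 (6.55%, against 4.66%). Between days they were then 53 in *Smchd1* wt (5.69%, against 4.49%) and 67 in *Smchd1* matΔ (7.20%, against 5.06%). For the interaction there were 44 (4.73%, against 4.78%). With robust moderation they were 54 at day 2 (5.80%, against 4.06%) and 47 at day 2.5 (5.05%, against 3.99%). Between days they were then 40 in *Smchd1* wt (4.30%, against 3.96%) and 51 in *Smchd1* matΔ (5.48%, against 4.29%). For the interaction there were 43 (4.62%, against 4.13%). With the cell line as a replicate block, for the pairing of days, the counts were 78 and 81 between days and 79 for the interaction. These were 8.38% to 8.70%, against 3.15% to 3.65% of all islands. With the line number as a block they were 81 and 77 between genotypes (8.70% and 8.27%, against 3.84% and 3.82%). No call changed under either block.

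The mean difference between genotypes at day 2 was 0.137 points with medians in place of means and 0.0518 points with libraries scaled to the same mean, against 0.175, and the day difference in *Smchd1* matΔ was -0.151 points with that scaling, against -0.233. Limits of 0.5 to 5 percent gave 2506 islands. Sporadic islands numbered 39 with at least 6 of 8 at 0 and 35 with a share of 0.6, and mixed islands 124 and 362 with the looser and the stricter count of libraries. A start lay within 5 kb of 93.6% of the 931 (97.0% of all), within 500 bases of 84.1% (93.2%), and within 2 kb for protein-coding genes in 84.5% (93.0%). With the CpG ratio of the deposited island names, chosen after seeing the data and sorted into sets of unequal size, the medians were 0.87, 0.82 and 0.78 and the share in the set of highest ratio 6.65% (8.29% with the computed ratio), and the order of the levels and of the sets was the same. The cause of these shifts was not tested.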
